A study of Homo sapiens with 6 samples.

Results

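Notch signalling passes between touching cells. A ligand of the Jagged or Delta-like family on one cell binds a Notch receptor on its neighbour, the receptor is cut first by an ADAM protease and then by gamma-secretase, and the freed intracellular part enters the nucleus. There it joins the DNA-binding protein RBPJ and a Mastermind coactivator such as MAML1, and genes of the HES and HEY families, which encode repressors, are switched on. In breast cancer the pathway is known for its ties to stem-like cells and to invasion, and JAG1 is often abundant in tumours without hormone receptors.

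The genes described here are the ligands JAG1, JAG2 and DLL1, the receptors NOTCH1, NOTCH2 and NOTCH3, the targets HES1 and HEY1, and the nuclear partners RBPJ and MAML1. They were chosen by name, with earlier results of these data known. A gene counted as measured where the array annotation gave a transcript cluster, the group of probes for 1 locus, that symbol and no other. Of the 10 genes, 9 were measured, out of 18417 genes tested. MAML1 lies only on clusters that it shares with the symbol LTC4S and has no value of its own here. RBPJ had a second, dimmer cluster, and the brighter one was used.

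The arrays came from MDA-MB-231, an established human line of triple-negative breast cancer grown in serum-containing medium. There were 3 control arrays, called untreated in the titles while the protocol text speaks of vehicle, and 3 arrays from cells exposed to 1 µM of selamectin for 24 h. Selamectin is a veterinary antiparasitic of the avermectin class, and the series title places it as an inhibitor of the SIN3 corepressor. Replicates are described as independent, with no account of how the cultures were separated. The p-values therefore set a difference against the spread between these arrays, moderated over all genes tested. RNA was taken from whole cultures, in which fewer cells expressing a gene and less RNA per cell cannot be told apart.

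The array medians lay between 7.47 and 7.51 log2 units, and log2 changes had a median standard error of 0.094. The second principal component set selamectin array 3, at 18.5, apart from the other arrays, which lay between -9.83 and 3.97. All 8 markers of mesenchymal breast lines were measured, with gene means from 8.42 to 12.78, and VIM, the intermediate filament protein vimentin, stood at 12.67 untreated. Of these 8 markers, 7 had positive changes with selamectin and 1 a negative one, while 11596 of all 18417 genes had positive changes. Before adjustment, 4 had a limma p under 0.05 as higher and 1 as lower, against 11.7% and 8.21% of all genes. CD44, the hyaluronan receptor, rose by 0.42 (limma adjusted p = 0.020), and the calcium-binding protein S100A4 stood at 0.36 (0.065) with groups that did not overlap. FN1, the matrix protein fibronectin, stood at -0.43 (0.083), also with groups that did not overlap. The 8 epithelial and luminal markers had gene means from 6.11 to 13.75. CDH1, the epithelial cadherin, stood at 6.27 untreated and the keratins KRT8 and KRT18 at 13.71 and 13.41. None of the 8 passed the test (3 had an unadjusted limma p under 0.05 as lower and 0 as higher), with 4 positive and 4 negative changes. Every treated array lay below every control for ERBB3, at -0.42 (limma adjusted p = 0.060), and CDH1, at -0.26 (0.064). For GATA3, at 0.16 (0.38), every treated array lay above. Means of the 4 measured leukocyte markers ran from 4.83 to 7.30 and those of 6 fibroblast markers from 5.54 to 9.01. The 6 endothelial markers, from a cell type rich in Notch genes, ran from 5.53 to 9.23, and their list mean spanned 6.63 to 6.78 on the untreated arrays and 6.63 to 6.76 on the selamectin arrays. Among them CDH5, the endothelial cadherin, went from 9.52 to 8.93, with every treated array below every control (log2 change -0.59, limma adjusted p = 0.067), while the other 5 had positive changes. The part of these markers in the Notch results was not tested. The table has no detection calls, so whether a dim marker lay above background is unknown. Levels of different genes rest on different probes and are not ranked against each other.

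Upstream sequence is shown for 3 genes: HES1, the textbook promoter bound by RBPJ, and JAG1 and NOTCH2, whose transcripts fell. Each run is the 250 bases before the RefSeq start site in GRCh38.p14, read 5′ to 3′ on the gene's own strand, and capitals mark the RBPJ core TGGGAA and its longer form GTGGGAA, which contains the core. The HES1 window is chr3:194135898-194136147 on the plus strand, the JAG1 window chr20:10674000-10674249 on the minus strand and the NOTCH2 window chr1:120069663-120069912 on the minus strand.
HES1: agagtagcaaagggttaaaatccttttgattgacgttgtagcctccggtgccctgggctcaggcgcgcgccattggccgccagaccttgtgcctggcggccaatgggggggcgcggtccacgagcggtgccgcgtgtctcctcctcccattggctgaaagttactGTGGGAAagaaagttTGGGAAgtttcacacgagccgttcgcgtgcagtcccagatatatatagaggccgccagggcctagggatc
JAG1: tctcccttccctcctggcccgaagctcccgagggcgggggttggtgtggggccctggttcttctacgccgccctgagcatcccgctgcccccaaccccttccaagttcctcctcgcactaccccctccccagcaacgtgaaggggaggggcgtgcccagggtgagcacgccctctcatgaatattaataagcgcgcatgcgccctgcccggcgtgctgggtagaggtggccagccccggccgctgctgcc
NOTCH2: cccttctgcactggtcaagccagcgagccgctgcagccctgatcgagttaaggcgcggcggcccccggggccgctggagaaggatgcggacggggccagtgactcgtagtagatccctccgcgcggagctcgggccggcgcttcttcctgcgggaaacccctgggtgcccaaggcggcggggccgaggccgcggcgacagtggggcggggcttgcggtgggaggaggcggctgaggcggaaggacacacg

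In the HES1 window GTGGGAA begins at position -85 and a second TGGGAA at position -70, counted back from the start site. Neither form occurs on either strand in the windows of JAG1 and NOTCH2. Of 35116 RefSeq promoter windows of the same length, 20.8% held TGGGAA on either strand and 5.43% held GTGGGAA. The palindrome CACGTG, an E-box of the kind HEY proteins bind, was searched too. It occurred in 6.34% of all windows and in none of the 12 windows found for 8 of the 10 genes. One of 5 RBPJ windows held 2 copies of GTGGGAA, at positions -115 and -73, the first on the opposite strand. The table used has no entry for DLL1 or HEY1. A match describes letters only, and the absence of one says nothing about binding.

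After selamectin, the ligand JAG1 and the receptor NOTCH2 fell, and no other measured Notch gene passed the test. Transcript of JAG1 was 1.30-fold lower and that of NOTCH2 1.44-fold lower. HEY1 was higher on 2 of 3 treated arrays and level with the controls on the third, and did not pass. The test was limma with Benjamini-Hochberg adjustment over all 18417 genes at a threshold of 0.05, where 4.69% of genes passed in either direction and 2.28% as lower. Against that background 2 of 9 Notch genes passed as lower, and 0 passed as higher, where 2.41% of all genes did. The genes were chosen with earlier results of these data known, so these shares do not test the set. Before adjustment, 3 of the 9 had a limma p under 0.05 as lower and 1 as higher, and 19.9% of all genes were under that value, 8.21% as lower and 11.7% as higher. The groups did not overlap for 3 of the 9, all lower with selamectin (JAG1, JAG2 and NOTCH2), while they did not overlap for 25.3% of all genes, 9.3% as lower and 16.0% as higher. Their median log2 change was -0.12, and that of all genes was 0.044.

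**Figure D1:**
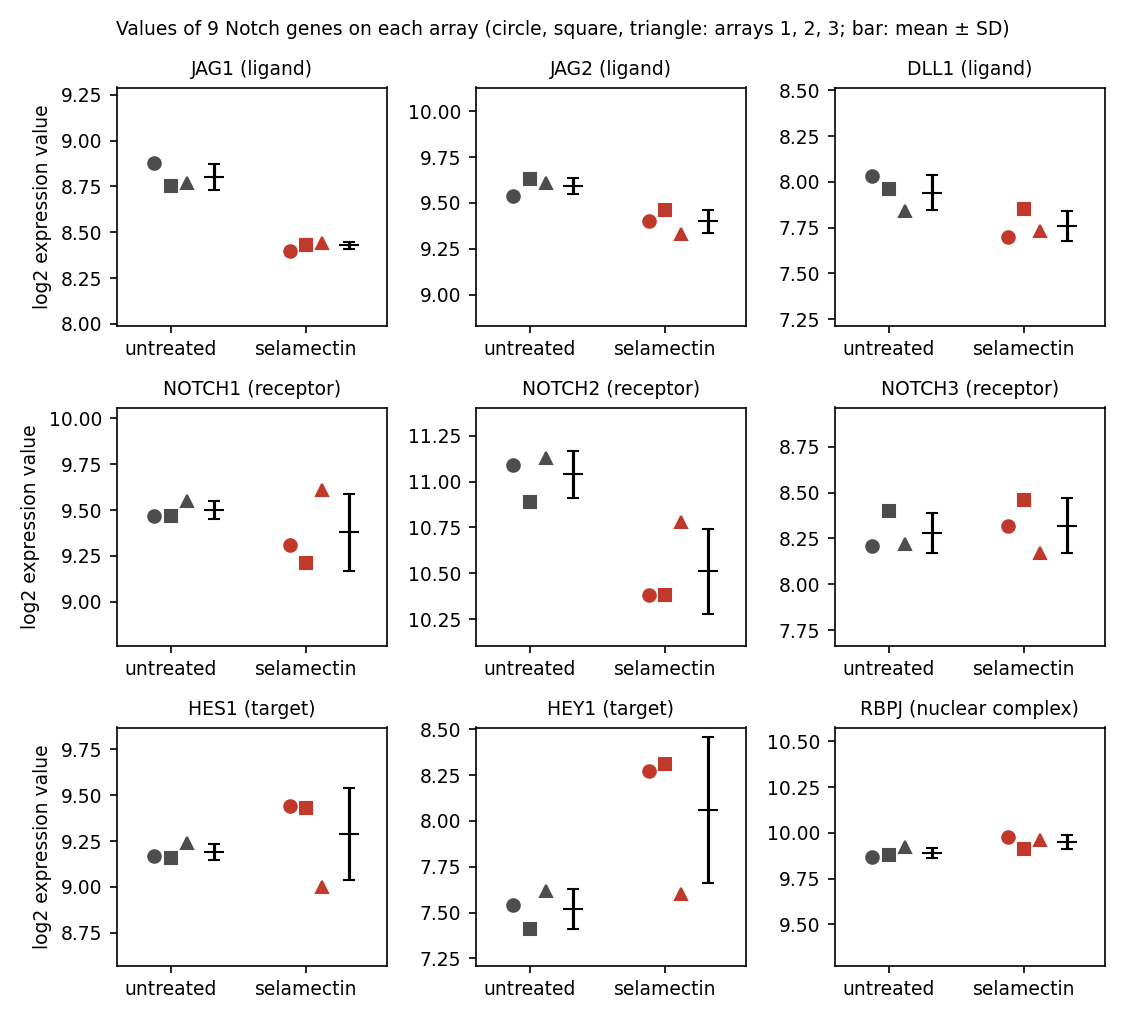
Log2 expression values of the 9 measured Notch genes on each of 6 arrays, 1 panel per gene with the same vertical span in log2 units; grey points are untreated arrays, red points selamectin arrays, and bars give the mean ± SD of 3 arrays. The selamectin points lie below all untreated points for JAG1, JAG2 and NOTCH2, and selamectin array 3, the triangle, lies away from the other selamectin arrays for NOTCH1, NOTCH2, HES1 and HEY1.

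Among the ligands, JAG1, the Jagged protein altered in Alagille syndrome, gave log2 values of 8.88, 8.75 and 8.77 on untreated arrays 1 to 3, and of 8.40, 8.43 and 8.44 on selamectin arrays 1 to 3. All treated arrays lay below all controls, and they lay closer to each other than the controls did. The mean went from 8.80 ± 0.070 to 8.43 ± 0.019 (SD, n = 3), a log2 change of -0.37 ± 0.088 (SE; 95% interval -0.57 to -0.18; limma adjusted p = 0.039). In linear terms the value was 22.9% lower.

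JAG2, the second Jagged ligand, gave 9.54, 9.63 and 9.61 untreated and 9.40, 9.46 and 9.33 with selamectin. Its groups did not overlap either, yet its log2 change of -0.20 did not pass (interval -0.39 to -0.0015, limma adjusted p = 0.25). DLL1, a Delta-like ligand, gave 8.03, 7.96 and 7.84 untreated and 7.70, 7.85 and 7.73 with selamectin. These groups overlapped by a narrow margin, with selamectin array 2 just above the lowest control, and the log2 change was -0.18 (interval -0.39 to 0.022, adjusted p = 0.31). On every selamectin array each of the 3 ligands lay below its untreated mean, which for JAG1 and JAG2 follows from groups that did not overlap. The share of all genes with this pattern was not counted. Of the 4 other ligands, 2 had positive and 2 negative changes. Whether JAG1 fell further than JAG2 or DLL1 was not tested.

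Among the receptors, NOTCH2 gave 11.09, 10.89 and 11.13 untreated and 10.38, 10.38 and 10.78 with selamectin. Selamectin arrays 1 and 2 lay well below the controls, while array 3 lay just below the lowest of them. The mean went from 11.04 ± 0.13 to 10.51 ± 0.23 (SD, n = 3), a log2 change of -0.52 ± 0.12 (SE; interval -0.79 to -0.26; limma adjusted p = 0.034). In linear terms the value was 30.5% lower.

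NOTCH2 has partial copies in the human genome, the NOTCH2NL genes, so its probes may not be specific. A second cluster, annotated jointly to NOTCH2, NOTCH2NLA and NOTCH2NLB, gave 11.27, 11.09 and 11.17 untreated and 10.72, 10.61 and 10.74 with selamectin. All 3 treated values lay below all controls there too, including that of array 3. In a limma fit of all 33297 clusters its log2 change was -0.48 with an adjusted p of 0.055, and the NOTCH2 cluster had 0.12 in the same fit. The joint cluster cannot be assigned to 1 of these genes, and it was read from the same RNA as the cluster used.

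NOTCH1, a receptor known for mutations in T-cell leukaemia, gave 9.47, 9.47 and 9.55 untreated and 9.31, 9.21 and 9.61 with selamectin. Arrays 1 and 2 lay below all controls and array 3 above them, and the log2 change was -0.12 (interval -0.37 to 0.12, limma adjusted p = 0.58). NOTCH3, a receptor best known from vascular smooth muscle, gave 8.21, 8.40 and 8.22 untreated and 8.32, 8.46 and 8.17 with selamectin. The values were interleaved, with a log2 change of 0.040 (interval -0.19 to 0.27, adjusted p = 0.86).

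**Figure D2:**
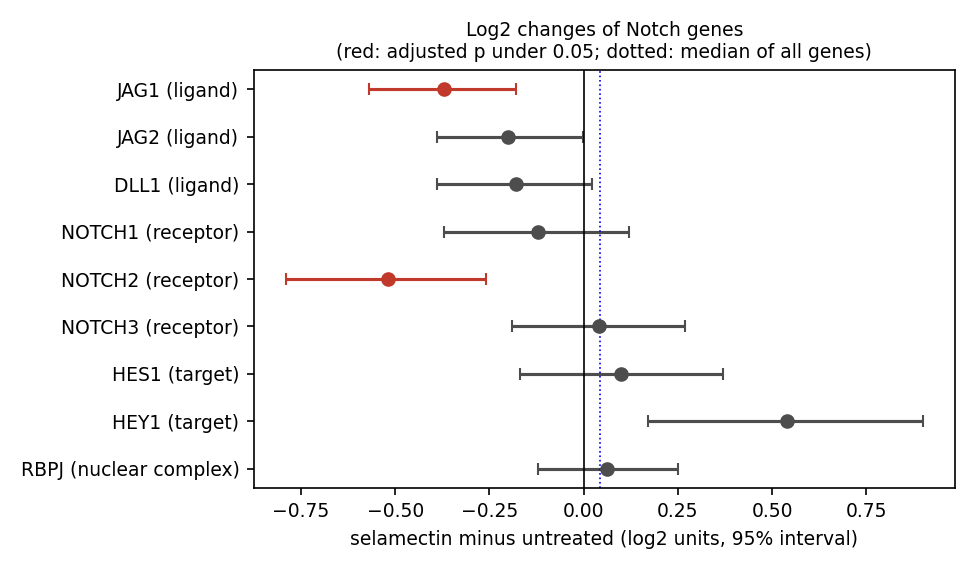
Log2 change, selamectin minus untreated, of each measured Notch gene with its 95% interval from limma over 3 arrays per group; red points have an adjusted p under 0.05 and the dotted line marks the median change of all genes, 0.044. JAG1 and NOTCH2 stand at -0.37 and -0.52 with intervals below 0, while HEY1 stands at 0.54 with the widest interval, from 0.17 to 0.90.

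The targets HEY1 and HES1 both had positive mean log2 changes, and neither passed. HEY1, a repressor of the hairy-related family, gave 7.54, 7.41 and 7.62 untreated and 8.27, 8.31 and 7.60 with selamectin. Arrays 1 and 2 stood 0.75 and 0.79 log2 units above the untreated mean, and array 3 stood 0.077 above it, within the range of the controls. The log2 change was 0.54 ± 0.17 (SE), with a limma adjusted p of 0.094.

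HES1, the founding Notch target of the HES family, gave 9.17, 9.16 and 9.24 untreated and 9.44, 9.43 and 9.0 with selamectin. Arrays 1 and 2 lay above all controls and array 3 below them all, so that the mean change of 0.10 (interval -0.17 to 0.37, limma adjusted p = 0.70) averages values of opposite sign. RBPJ, the factor through which all Notch receptors act on DNA, gave 9.87, 9.88 and 9.92 untreated and 9.98, 9.91 and 9.96 with selamectin. Its SDs of 0.026 and 0.036 were small, and its change was 0.061 (interval -0.12 to 0.25, adjusted p = 0.73). The dimmer RBPJ cluster went from 7.24 to 7.30.

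Selamectin array 3 therefore stood apart in NOTCH1, NOTCH2, HES1 and HEY1. Without it, the log2 change of HEY1 was 0.77 with a limma adjusted p of 0.0028, that of HES1 0.24 (adjusted p = 0.16), that of NOTCH1 -0.24 (0.18) and that of NOTCH2 -0.66 (0.0033). JAG1 stood at -0.38 (0.048) without it. Array 3 was picked out partly by the values of NOTCH1, NOTCH2, HES1 and HEY1, so their changes without it are no separate test. When any other array was left out, the limma adjusted p of HEY1 lay between 0.17 and 0.30. Over all alternatives the adjusted p lay between 0.16 and 0.96 for HES1 and between 0.095 and 0.93 for NOTCH1. What sets the array apart was not tested.

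The calls for JAG1 and NOTCH2 rested on most of the arrays. JAG1 lost its call without untreated array 1 (limma adjusted p = 0.14), untreated array 3 (0.13), selamectin array 1 (0.10) or selamectin array 2 (0.14), with a log2 change between -0.40 and -0.33 over all alternatives. NOTCH2 lost its call without the same arrays, at 0.14, 0.14, 0.090 and 0.14, with a change between -0.66 and -0.46. Over 16 alternatives the adjusted p ran from 0.0058 to 0.14 for JAG1, from 0.00084 to 0.14 for NOTCH2 and from 0.0028 to 0.30 for HEY1. Neither JAG1 nor NOTCH2 passed when all 33297 clusters entered the fit.

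**Figure D3:**
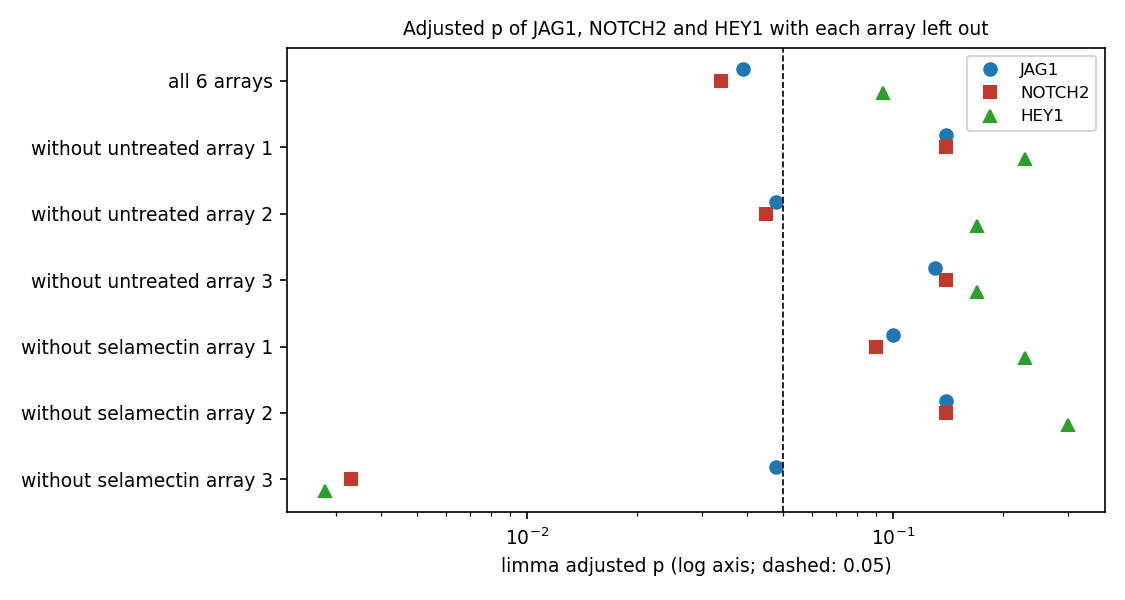
Limma adjusted p, on a log axis, of JAG1, NOTCH2 and HEY1 with all 6 arrays and with each array left out in turn; the dashed line marks 0.05. JAG1 and NOTCH2 lie to the left of the line with all arrays and when untreated array 2 or selamectin array 3 is left out; HEY1 does so only when selamectin array 3 is left out, at 0.0028.

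The rest of the pathway was covered by 69 genes in 9 lists, of which 63 were measured. Of these, 2 fell and none rose past the limma threshold; before adjustment, 9 had a p under 0.05 as higher and 5 as lower, shares near the 11.7% and 8.21% of all genes. With 2 of 63 lower, the share is close to the 2.28% of all genes. Their median log2 change was 0.064, next to 0.044 for all genes. The others were not analysed here.

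MIB1, the ubiquitin ligase that drives the ligand uptake needed for receptor activation, fell. It gave 9.30, 9.06 and 9.34 untreated and 8.73, 8.46 and 8.67 with selamectin, so that every treated array lay below every control. The mean went from 9.23 ± 0.15 to 8.62 ± 0.14 (SD, n = 3), or 1.53-fold lower (log2 change -0.61 ± 0.11 SE, limma adjusted p = 0.014). The call was lost without untreated array 1 (adjusted p = 0.068), untreated array 3 (0.072) or selamectin array 2 (0.067), and with all clusters in the fit (0.068), and the adjusted p lay between 0.00069 and 0.072 over all alternatives.

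NEURL1, a neuralized-type ubiquitin ligase that also acts on ligands, gave 8.89, 9.10 and 9.02 untreated and 9.33, 9.35 and 9.36 with selamectin. Its groups did not overlap, but its log2 change of 0.34 did not pass (limma adjusted p = 0.063).

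TLE2, a Groucho-family corepressor recruited by HES proteins, also fell. It gave 9.17, 9.46 and 9.28 untreated and 8.78, 8.98 and 8.83 with selamectin, again with every treated array below every control. The mean went from 9.30 ± 0.14 to 8.86 ± 0.11 (SD, n = 3), or 1.36-fold lower (log2 change -0.44 ± 0.11 SE, limma adjusted p = 0.039). It lost its call whichever array was left out, with an adjusted p between 0.054 and 0.12, and with all clusters in the fit (0.11), and over all alternatives it lay between 0.006 and 0.12.

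None of the other corepressor genes, of which 13 were measured in all, passed in the reported fit. RITA1, a protein that carries RBPJ out of the nucleus, stood at 0.33 (limma adjusted p = 0.069) with groups that did not overlap.

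No gene of the remaining lists passed in the reported limma fit. Among 6 enzymes that glycosylate or process the receptors, POGLUT1, the O-glucosyltransferase of Notch EGF repeats, stood at 0.53 (adjusted p = 0.073) and POFUT1, the O-fucosyltransferase, at 0.23 (0.17). The treated arrays lay above all controls for both. Among 7 ADAM and gamma-secretase genes, which cut the receptor, the median change was 0.11, with the secretase subunits PSENEN at 0.23 (0.23) and NCSTN at 0.17 (0.35). PSENEN passed without selamectin array 3 (0.32, adjusted p = 0.047, against 0.019 to 0.62 over all alternatives). In that fit MIB1 and the corepressor genes CTBP2 and HDAC1 passed too, and 1149 of all genes did, against 864 in the reported fit.

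Among 11 genes of receptor turnover and inhibition, the Deltex ligases DTX4 and DTX3L stood at -0.21 (limma adjusted p = 0.24) and 0.24 (0.22). Among 8 nuclear coactivators, MAML2, a Mastermind paralogue, stood at -0.28 (0.20) and KAT2A, an acetyltransferase, at 0.41 (0.17). KAT2A reached 11.22 on selamectin array 3, against 10.54 and 10.58 on arrays 1 and 2.

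The 4 other ligands ranged from -0.17 for DLL3 to 0.11, and DLL4, the endothelial Delta-like ligand, stood at -0.15 (adjusted p = 0.39). NOTCH4 stood at 0.059. The 10 other targets, among them HES5 at 0.15 and PTCRA at 0.16, ranged from -0.14 to 0.16, and 0 had an unadjusted p under 0.05 in limma.

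**Figure D4:**
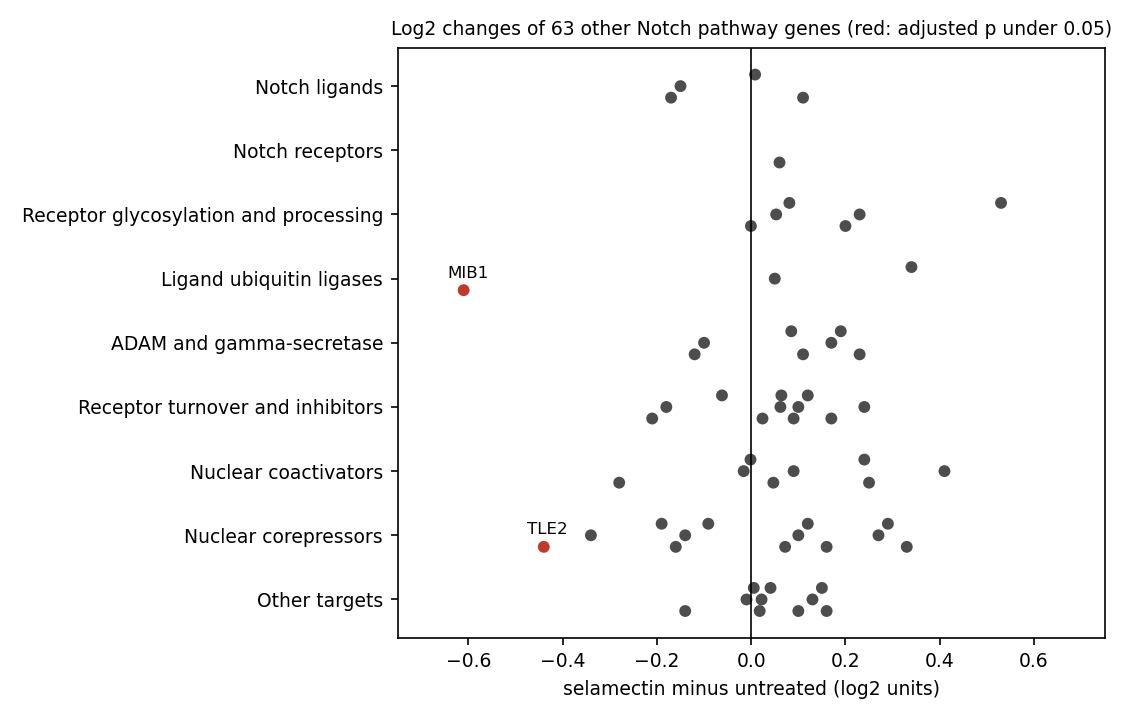
Log2 change, selamectin minus untreated, of 63 other measured Notch pathway genes in 9 lists by role; each point is 1 gene over 3 arrays per group, spread vertically only to keep points apart, and red points have a limma adjusted p under 0.05. MIB1 at -0.61 and TLE2 at -0.44 are the 2 red points, and the 10 other targets lie between -0.14 and 0.16.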

How the data were processed

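RNA levels were read from 6 Affymetrix whole-transcript arrays. The values are log2 expression values that the authors deposited, with Affymetrix Expression Console, RMA and Transcriptome Analysis Console named in the submitters' processing notes and no version or setting. The log base is inferred from their range. RMA as commonly run normalizes arrays together, so a shift shared by all genes would be lost. No source used here names a genome build for the arrays. Of 33297 clusters, 19460 had 1 symbol in the platform annotation; the brightest cluster stood for each of 18417 genes. Genes were fitted with limma 3.58.1 in R 4.3.3 (lmFit, eBayes with trend), as two-sided tests of selamectin minus untreated with no block for the replicate number, and the fit was tested on simulated data. The Notch genes and lists were chosen with earlier results of these data known. Named wider genes are those past the threshold and the 2 with the smallest p in each list. Alternatives were normalization, dim filters of 20% and 40%, eBayes settings, array weights, a replicate block, averaged clusters, all clusters, thresholds and each array left out. Scanner files, slides and scan dates were not used here, so background correction and batches were not tested. Promoter sequences are RefSeq's for GRCh38.p14.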

Additional observations from a re-analysis of the deposited data

How the results depend on the processing

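Of the count of Notch genes past the threshold, 2 in the reported fit, the value was 0 with all clusters in the fit, 0 at a threshold of 0.01, and between 0 and 3 with 1 array left out. For the 63 wider genes, also 2, it was 4 with the dimmest 40% of genes left out, 12 with array weights, 0 with all clusters, 5 at a threshold of 0.1, 0 at 0.01, and between 0 and 4 with 1 array left out. For all genes, 864, it was 3286 with array weights, 167 of the 18417 genes with all clusters, 1602 and 173 at thresholds of 0.1 and 0.01, and between 176 and 1149 with 1 array left out. In the array weights, untreated array 3 had 5.11 and the others between 0.447 and 1.22. With 1 array left out, the log2 change of NOTCH3 lay between -0.033, without selamectin replicate 2, and 0.11, and that of NOTCH4 between -0.054, without untreated replicate 1, and 0.17; no other named gene changed sign. With a replicate block, 1 Notch gene passed, NOTCH2, and JAG1 had a limma adjusted p of 0.059; of the wider genes 3 passed, MIB1, TLE2 and POGLUT1 (log2 change 0.53, adjusted p = 0.030). The numbers share nothing else in the labels. Deviations of same-numbered arrays from their group means correlated across genes at -0.0113, 0.242 and -0.139. With 3 arrays per group these correlations cannot decide whether same-numbered cultures were paired. Of the untreated arrays, only array 2 correlated best with its own number. Untreated array 3 did so with selamectin array 1, at 0.299, and untreated array 1 with selamectin array 3, at 0.121. The cause of these differences was not tested. With 3 arrays per group, changes near the median standard error of 0.094 could not be told from noise. Larger changes also failed to pass, such as JAG2 at -0.20 (limma adjusted p = 0.25) and HEY1 at 0.54 (0.094). Genes that passed had a median absolute log2 change of 0.49, so a gene that did not pass is not shown to be unchanged.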

Other observations

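The 2 clusters annotated jointly to MAML1 and LTC4S, which cannot be assigned to either gene, gave means of 9.12 untreated and 9.23 with selamectin for one and of 8.19 and 8.33 for the other, with adjusted p-values of 0.65 and 0.61 in a limma fit of all clusters.

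Over the 6 arrays, the genes whose values ran most like those of JAG1 were KLHL9 (Pearson r = 0.9954), RPL31 (0.9924) and CBR4 (0.9902). KLHL9 is an adaptor of a ubiquitin ligase, and RPL31 a ribosomal protein. CBR4 fell as well, by 0.39 log2 units (limma adjusted p = 0.036), while KLHL9 stood at -0.18 and RPL31 at -0.17 without passing. Most like NOTCH2 were LAMA5, a laminin chain (r = 0.9974), AMOTL2, an angiomotin that binds YAP (0.9909), and LPP, a protein of focal adhesions (0.9899). LAMA5 fell by 0.45 (adjusted p = 0.048) and LPP by 0.61 (0.037), and AMOTL2 stood at -0.46 (0.074). The named genes are the highest of all genes tested, over 6 arrays that share one treatment contrast. Of 18417 genes tested, 473 had an r over 0.9 with JAG1 and 329 with NOTCH2. How many came near the higher r of the named genes was not counted.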
